A study of Zea mays with 40 samples.

Results

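The genes that peaked at 10 days after pollination (DAP) in the maize kernel are described here as 150 genes, chosen from the deposited expression table by their profile over kernel development. For every gene with a GRMZM name, the mean FPKM (fragments on a gene, scaled to its length and to the mapped fragments of the library) of the 8 libraries of each DAP was taken. Genes with a mean of at least 5 FPKM at 10 DAP, 10996 of 35991 GRMZM genes and of 65196 rows in all, were ranked by the mean at 10 DAP plus 1 divided by the highest later mean plus 1, and the 150 with the highest ratio were kept. The means over DAP therefore chose the genes, and their fall after 10 DAP is given as a description with no test. Differences between lines within 10 DAP were tested, but they are not fully independent of the choice, since a gene could enter through the line in which it was high. Without the line of its highest level at 10 DAP, 119 of the 150 genes still met the minimum and the ratio of the last gene, and 31 did not.

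RNA was sequenced from whole kernels of 4 untreated inbred lines at 5 times every 10 days from 10 to 50 DAP, with kernels from the middle of 2 ears as the 2 replicates of each of the 20 groups, which gave 40 libraries. Libraries labelled T147 and T191 were taken by their numbers as YZU147 and YZU191, 2 inbred lines that the study added for their contrasting seed filling. Libraries labelled T209 and T210 are from the 2 parents (DH1M and T877) of the study's recombinant inbred lines, without a label that links either number to a parent's name. A figure legend of the paper counts YZU147 and YZU191 among the recombinant inbred lines, so they may descend from these parents. Directions below hold for the libraries as labelled.

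A maize kernel at this age has a young endosperm whose nuclei have recently become enclosed in cells, a small embryo and maternal seed coat. At the base of the endosperm, the basal endosperm transfer layer takes up sugars and amino acids from the mother plant through cells with ingrown walls, and secretes small cysteine-rich proteins. Around the embryo lies the embryo-surrounding region, marked by the ESR genes, while the bulk of the endosperm goes on to make zein storage proteins and starch. In RNA from whole kernels, fewer cells of a type and less RNA per cell cannot be told apart.

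The read number of the libraries is unknown. Their depth relative to the median library, read from the steps of low FPKM values, ranged from 0.612 to 2.30 over all libraries and from 0.948 to 1.21 at 10 DAP. Spearman's rho between the 2 ears of a group was 0.948 to 0.967 at 10 DAP and as low as 0.843 at later times. Zein genes, which mark starchy endosperm, were present in every library at 10 DAP, with 16618 to 63912 summed FPKM over 11 distinct profiles. Ear 2 of YZU191 at 20 DAP stood apart from ear 1, with 19200 against 89875 summed zein FPKM, and ear 2 of T210 at 20 DAP had 25905 against 72201. Because groups hold 2 ears each, spread was pooled over all 20 groups in limma, and adjusted p-values below are from that model after Benjamini-Hochberg adjustment over 43394 genes.

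The level of these genes was far lower at 20 than at 10 DAP and near 0 by 40 DAP. The median over the 150 genes of the mean FPKM was 46.5 at 10 DAP, 1.99 at 20 DAP, 1.11 at 30 DAP, 0.0461 at 40 DAP and 0.0496 at 50 DAP. At 10 DAP the means of single genes spanned 5.34 to 3507 FPKM. The mean was under 1 FPKM for 58 genes at 20 DAP, 70 at 30 DAP, 134 at 40 DAP and 132 at 50 DAP. The highest later mean was at 20 DAP for 116 genes, at 30 DAP for 27, and at 40 or 50 DAP for 7. All 8 libraries at 10 DAP lay above all 32 others for 125 genes, so that the profile was shared by the lines for most of them. Within single lines, 144 genes had their highest mean at 10 DAP in all 4 lines.

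**Figure D1:**
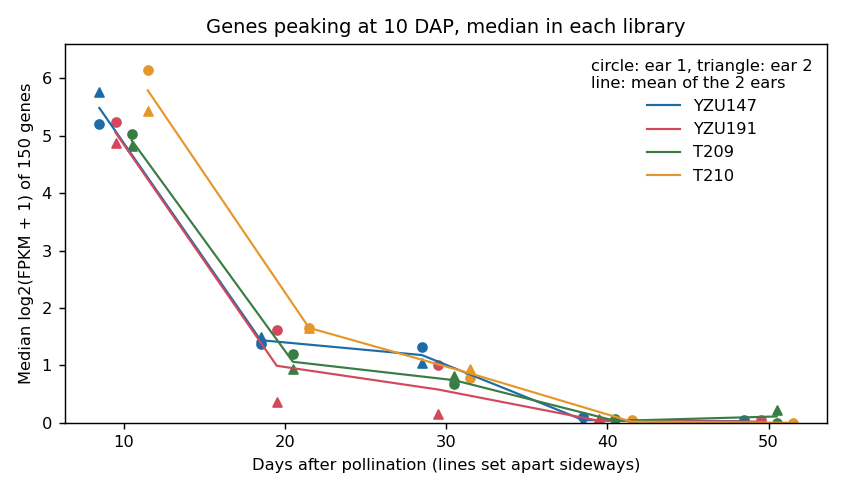
Median log2(FPKM + 1) of the 150 genes in each of the 40 libraries, against days after pollination, with circles for ear 1, triangles for ear 2 and lines through the mean of the 2 ears of each inbred line. The 8 libraries at 10 DAP lie between 4.81 and 6.15, and no later library is above 1.66.

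At 20 DAP the ears of YZU191 differed from each other. The median FPKM of the 150 genes was 2.08 in ear 1 and 0.288 in ear 2, and 91 genes reached 1 FPKM in ear 1 against 43 in ear 2. The same line showed 1.01 and 0.113 at 30 DAP, while the ears of the other 3 lines had medians between 0.912 and 2.16 at 20 DAP.

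The gene with the steepest profile was fl3 (GRMZM2G006585), Floury3, which encodes an endosperm PLATZ-domain protein that binds components of the RNA polymerase III machinery. Its mean was 1255 FPKM at 10 DAP, 7.30 at 20 DAP and 0.335 at 50 DAP, a ratio of 151 with 1 added to both means. In single ears at 10 DAP it had 1448 and 1297 FPKM in YZU147, 2574 and 933 in YZU191, 434 and 255 in T209, and 1475 and 1622 in T210. The T209 ears were thus the lowest of the 8, and they did not overlap with those of any other line. The next genes in the order, GRMZM2G114356, GRMZM2G125441 and GRMZM2G150134, have no symbol in the gene table used. GRMZM2G114356 had a mean of 198 FPKM at 10 DAP and never exceeded 0.664 FPKM in any later library.

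The limit of 150 genes was passed narrowly. GRMZM2G036262 and GRMZM6G370842 were the last inside it, both with a ratio of 5.72, while GRMZM2G058310 (BMY1, a beta-amylase, which splits maltose from starch chains) with 5.68 and GRMZM2G110816 with 5.56 were the first outside. The median ratio of the 150 genes was 9.36.

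Of the 150 genes, 100 were matched to the RefSeq gene table. A list of names with known roles, chosen by hand and including the transfer-layer families, matched 24 of them. It left out other symbols, such as kin1 and gar2. The basal endosperm transfer layer was the largest group among the 24, but the choice of names set this in part. A list of transfer-layer and embryo-surrounding-region genes made by symbol after the values were seen holds 22 rows, all of which had their highest mean at 10 DAP, and 13 of them are among the 150. The highest mean was also at 10 DAP for 13 of 20 MADS rows and 3 of 3 starch synthesis rows. It was there for 1 of 23 zein rows and 0 of 10 embryo rows. The share over all genes was not taken. Because near-identical genes can share reads, some rows cannot be read apart: bap1-b and bap-1a hold the same 40 values, as do BETL1 (GRMZM2G082785) and 2 further rows of the 150, and the row of MEG6 named GRMZM2G088896 and 2 others. In all, 10 of the 150 rows shared every value with another, leaving 144 distinct profiles.

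Among the secreted proteins, betl-9 (GRMZM2G087413) had the highest level, with 1218 and 1151 FPKM in the ears of YZU147, 1198 and 966 in YZU191, 905 and 818 in T209, and 2587 and 883 in T210. A single library, ear 1 of T210, stood above the rest, and its partner ear lay among those of T209. BETL1, a secreted transfer-layer protein, had 334 and 388 FPKM in YZU147, 608 and 367 in YZU191, 475 and 303 in T209, and 1235 and 600 in T210. Its mean went from 539 FPKM at 10 DAP to 30.7 at 20 DAP and 0.353 at 40 DAP. MEG1 (GRMZM2G354335), a peptide that is expressed from the maternal allele early in development and promotes transfer-cell differentiation, had 212 and 271 FPKM in YZU147, 333 and 126 in YZU191, 117 and 129 in T209, and 448 and 174 in T210. T209 was low in both ears, but ear 2 of YZU191 overlapped with it.

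The antifungal BAP proteins of the basal layer differed in their order of lines. For bap1-b and bap-1a, ears had 9.2 and 22.2 FPKM in YZU147, 34.2 and 25.8 in YZU191, 25.5 and 8.59 in T209, and 129 and 41.5 in T210, so that both T210 ears were above the other 6. For bap-3b (GRMZM2G133370) the T210 ears had 44.1 and 9.52 FPKM, and ear 2 was the lowest of the 8, with 26.8 and 117 in YZU147, 140 and 41.8 in YZU191, and 42.9 and 76.6 in T209. The bap-3a gene (GRMZM2G133382) had its lowest value in the same ear, with 17.6 and 6.85 FPKM in T210 and 14.5 to 43 in the other 6 ears.

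Sugar uptake and signalling in the layer were represented by INCW2 and tcrr-1. INCW2 (GRMZM2G119689), the cell-wall invertase encoded by miniature1, splits the sucrose that arrives at the base of the endosperm. It had 676 and 750 FPKM in YZU147, 484 and 286 in YZU191, 180 and 233 in T209, and 794 and 272 in T210. Its log2 difference between T209 and T210 was -1.18 (SE 0.77, adjusted p = 0.504 in limma), which did not pass the test. The response regulator tcrr-1 (GRMZM2G016145), known from transfer cells, was between 16.2 and 44.1 FPKM in the 8 ears, and reached no more than 1.07 FPKM in any later library. The lowest and the next lowest of these ears were in YZU147 and T210, whose other ears were the 2 highest, so its spread lay within lines and not between them.

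Between the lines at 10 DAP, no row of the 22 transfer-layer and embryo-surrounding genes passed limma's test for YZU191 against YZU147, and 2 had an unadjusted p under 0.05. Between the parents 7 of the 22 were lower in T209, beside 5.69% of all genes tested, and 0 were higher. The median log2 difference was -1.05 against 0.0 over all genes tested. An unadjusted p under 0.05 was found for 10 of the 22. The share of all genes under that unadjusted threshold is not given here for either pair, so the unadjusted counts have no background to be read against. Only bap1-b and bap-1a, with their single shared profile, were among both the 7 and the 150 genes, with a log2 difference of -2.22 (SE 0.43, adjusted p = 0.000851 in limma). That call was lost without ear 1 of T210, without ear 2 of T209 and with a pseudocount of 0.1, with an adjusted p of up to 0.0909 over the alternatives. The other 5 belong to the embryo-surrounding region and related layers, and they had lower ratios, levels under the minimum of 5 FPKM or no GRMZM name.

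**Figure D2:**
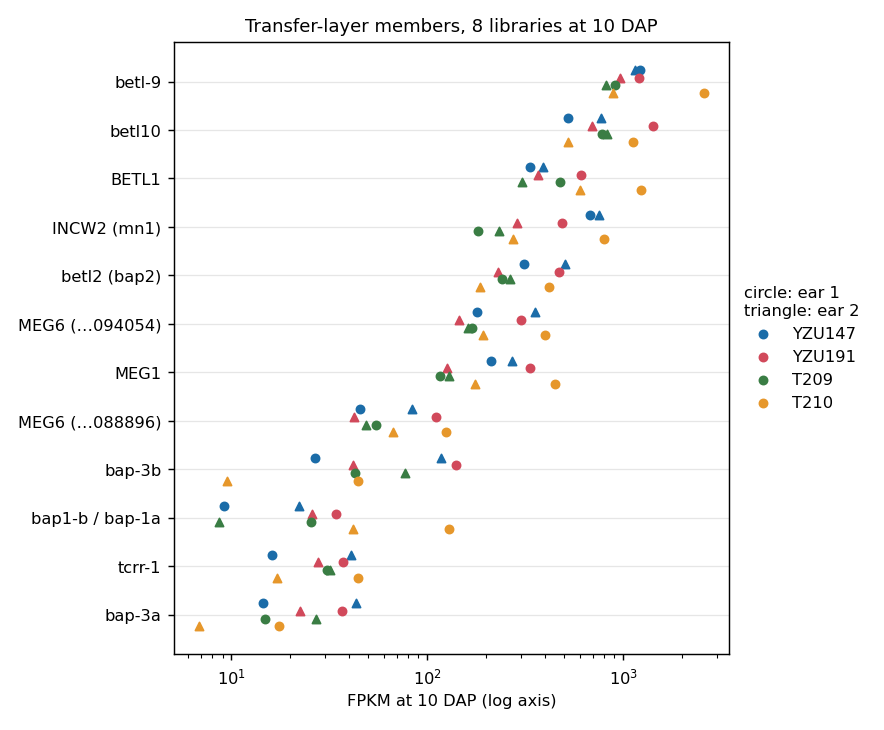
FPKM at 10 DAP, on a log axis, of the 12 distinct transfer-layer profiles among the 150 genes, with 1 symbol for each ear and a colour for each line. Ear 1 of T210 is the highest library for betl-9, at 2587 FPKM, and ear 2 of T210 the lowest for bap-3b, at 9.52 FPKM.

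A pair of histones and a glycolytic enzyme, named by symbol after their values were seen, were also among the 150. None of the 8 rows found by keyword for cell cycle and division, or of the 6 for DNA replication and chromatin, was among them. However, 7 of the 8 and all of the 6 had their highest mean at 10 DAP. The core histones his2b5 (GRMZM2G342515) and his2a1 (GRMZM2G305046), which package newly made DNA, went from 89.5 to 5.12 and from 137 to 19.0 FPKM in the mean between 10 and 20 DAP. For his2b5 the ears at 10 DAP had 55.8 and 153 FPKM in YZU147, 106 and 25.4 in YZU191, 75.0 and 96.2 in T209, and 119 and 85.0 in T210. Its ears overlapped between all 4 lines, and neither histone passed a line test. Of 10 histone rows found by symbol, 9 had their highest mean at 10 DAP, but the rows other than these had a lower ratio or no GRMZM name. The enzyme gpc4 (GRMZM2G176307), a cytosolic glyceraldehyde-3-phosphate dehydrogenase, had 1206 to 2503 FPKM in the 8 ears at 10 DAP. It was also among the few that stayed on, with means of 68.4 FPKM at 40 DAP and 40.5 at 50 DAP.

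Further annotated genes were spread over several functions. BURP7 (GRMZM2G032145) and BURP6 (GRMZM2G406170) carry the BURP domain of plant cell-wall and secreted proteins, with means of 343 and 226 FPKM at 10 DAP. The dehydroascorbate reductase dhar2 (GRMZM2G005710), which regenerates ascorbate, had a mean of 64.7 FPKM at 10 DAP and 8.97 at 20 DAP, and CSLD1 (GRMZM2G015886), a cellulose synthase-like protein, was between 4.88 and 15.8 FPKM in the ears at 10 DAP. Only 2 transcription factors were found by symbol, MADS18 (GRMZM5G805387) and bHLH161 (GRMZM2G045883), with means of 33.6 and 34.3 FPKM at 10 DAP, out of 156 rows on the list. The list of these factors was made from words in symbols, so factors without a symbol were not counted.

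By level, GRMZM2G046532 was the highest of the 150, with a mean of 3507 FPKM, followed by GRMZM2G406552, GRMZM2G469380, gpc4, fl3, betl-9, GRMZM2G150091 and betl10 (GRMZM2G091445). The first of these had 5189 and 4728 FPKM in YZU147, 2415 and 2721 in YZU191, 1843 and 1322 in T209, and 3935 and 5903 in T210. Its lines did not overlap between T209 and T210, but the log2 difference of -1.63 (SE 0.98, adjusted p = 0.432 in limma) did not pass the test. None of these 8 genes was called between YZU191 and YZU147, and fl3 alone was called between the parents.

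The 150 genes as a whole took 4.72% and 5.79% of the summed FPKM in the ears of YZU147 at 10 DAP, 5.58% and 3.67% in YZU191, 3.45% and 3.37% in T209, and 7.65% and 5.02% in T210. T209 had the 2 lowest shares. By 50 DAP no library had more than 0.0243%.

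The first question on lines was whether they differed at 10 DAP in the genes that were chosen for a profile averaged over them. In limma's test over the 4 lines 59 of the 150 genes (39.3%) were called, beside 14.1% of all genes tested and 7.8% of the 10996 genes of at least 5 FPKM. The choice itself admits genes that are high in 1 line only, so the count is a description of the set. The spread pooled with later times can also be too small for these genes, so the shares are not a like comparison. It was 35 of the 119 genes (29.4%) that met the rule without their highest line and 24 of the other 31. Counting each distinct profile once gave 58 of 144. Line T210 held the highest 10 DAP mean for 81 genes, YZU147 for 38, YZU191 for 18 and T209 for 13. The lowest mean was in T209 for 63 genes, in YZU191 for 34, in YZU147 for 32 and in T210 for 21. The same counts were not taken over all genes, so this order may not be particular to the set. No line test was passed by 91 genes.

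Between YZU191 and YZU147 at 10 DAP, 28 genes were called, 6 higher and 22 lower in YZU191. Over all genes tested 6.24% were called, 3.42% higher and 2.82% lower, and 3.11% of the genes of at least 5 FPKM. The ears of the 2 lines did not overlap in any of the 28, nor in 66 of the 150 genes in all, beside 41.4% of all genes tested and 42.7% of those of at least 5 FPKM. Among the 119 genes that met the rule without their highest line, 4 were higher and 14 lower. Log2 differences of the called genes ran from -5.67 to -1.01 among the lower and from 1.14 to 6.49 among the higher. The median over all 150 genes was -0.11, beside -0.07 over genes of at least 5 FPKM. Negative differences were found for 83 of the 150 (55.3%), beside 59.3% of the genes of at least 5 FPKM. Without ear 2 of YZU147 the counts became 10 higher and 11 lower, and the median was 0.17, and without ear 2 of YZU191 the median was 0.19. With a pseudocount of 0.1 in place of 1, 14 of the 150 genes were called, 3 higher and 11 lower. The share over all genes at that setting is not given here.

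Among the genes lower in YZU191 was A1 (GRMZM2G026930), the dihydroflavonol reductase of anthocyanin synthesis. Ears at 10 DAP had 35.9 and 93.3 FPKM in YZU147, 19.1 and 15.0 in YZU191, 36.3 and 40.7 in T209, and 95.7 and 124 in T210. A1 was lower in YZU191 than in YZU147 by a log2 difference of -1.72 (SE 0.30, adjusted p = 0.000428 in limma), and lower in T209 than in T210 by -1.48 (SE 0.30, adjusted p = 0.00145). Both calls were lost with a pseudocount of 0.1. GRMZM2G150134 had 107 and 164 FPKM in YZU147 but 21.3 and 13.8 in YZU191, a log2 difference of -2.88 (SE 0.22, adjusted p = 5.42e-09 in limma). The call held under all 46 alternatives, with differences from -3.18 to -2.57. Its SE pools the spread of later times, when the mean was at most 0.108 FPKM, and can be too small at 10 DAP.

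Between the parents at 10 DAP, 51 genes were called, 14 higher and 37 lower in T209, beside 10.6% of all genes tested (4.9% higher, 5.69% lower) and 6.09% of the genes of at least 5 FPKM. The ears of the parents did not overlap in any of the 51, nor in 98 of the 150 genes, beside 48.5% of all genes tested and 49% of those of at least 5 FPKM. Among the 119 genes that met the rule without their highest line, 7 were higher and 22 lower, with a median log2 difference of -0.58. Here most of the set lay on the same side: the log2 difference was negative for 113 of 150 genes (75.3%), beside 56.9% of the genes of at least 5 FPKM. The median was -0.60 over the 150 genes and -0.06 over the genes of at least 5 FPKM. Without ear 1 of T210, 23 genes were lower and 14 higher, and the median was -0.28. With a pseudocount of 0.1, 27 of the 150 genes were called, 17 of them lower in T209, with no share over all genes given for that setting.

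For fl3 the log2 difference between T209 and T210 was -2.21 (SE 0.47, adjusted p = 0.00217 in limma). This call was lost without ear 2 of T209 and with a pseudocount of 0.1, with adjusted p up to 0.229 over the alternatives. GRMZM2G003909 had 8.30 and 10.9 FPKM in T209 and 159 and 187 in T210, and 7.77 to 18.5 in the ears of the other 2 lines. It stood out only in T210, with a log2 difference of -4.04 (SE 0.25, adjusted p = 4.46e-11 in limma) between the parents. This SE pools the spread of later times, when the mean was at most 0.0366 FPKM, and can be too small at 10 DAP. The transcription factor bHLH161 had 11.9 and 14.0 FPKM in T209 and 76.6 and 87.8 in T210, with 13.5 to 32.7 in the YZU lines. Its difference was -2.58 (SE 0.44, adjusted p = 0.000225 in limma), whereas MADS18 had 24.3 to 56.4 FPKM over the 8 ears and passed no line test.

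**Figure D3:**
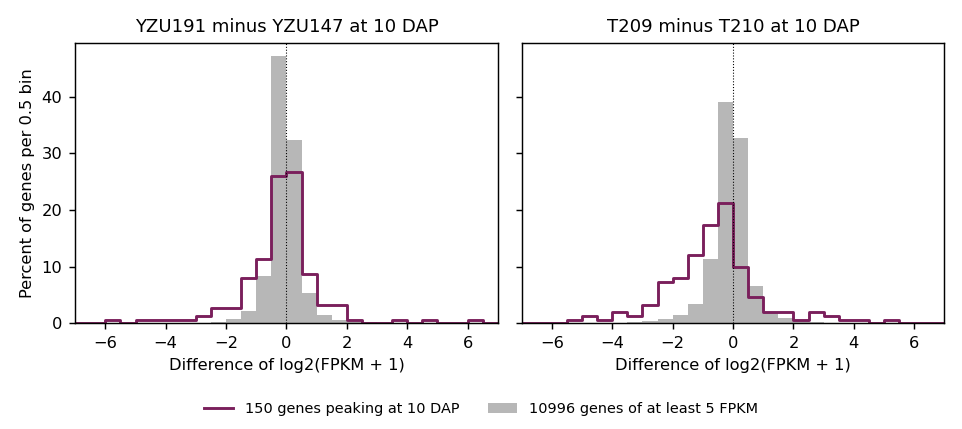
Distribution of the difference of log2(FPKM + 1) at 10 DAP between YZU191 and YZU147 (left) and between T209 and T210 (right), as percent of genes per bin, for the 150 genes (line) and for the 10996 genes of at least 5 FPKM (grey bars; 1 gene below the range of the right axis is not drawn). The 150 genes are spread more widely in both pairs, and their median is -0.60 for the parents against -0.06 for the grey bars.

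The genes called in both pairs numbered 22, beside 3.66% of all genes tested and 1.66% of those of at least 5 FPKM. Of these, 14 were lower in YZU191 and in T209, 3 were higher in both, 4 were lower in YZU191 but higher in T209, and 1 was the reverse. The sign was shared by 17 of the 22 (77.3%), by 118 of the 182 genes of at least 5 FPKM called in both pairs (64.8%) and by 71.5% of all genes called in both, so shared signs were common beyond the 150 genes. The pairs share no libraries, but the YZU lines may descend from the parents, so the 2 pairs may not be separate evidence.

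Some genes were nearly silent in whole lines at 10 DAP. Their line differences include the values through which they entered the 150. Under 1 FPKM in both ears of at least 1 line were 7 genes, of which 4 were low in YZU191, 3 in T209, 2 in T210 and 1 in YZU147. GRMZM2G095244 is listed at 0 in all 6 ears of YZU147, YZU191 and T209, with 28.2 and 25.6 FPKM in T210. The symbol gar2 belongs to GRMZM2G429000, which had 17.6 and 29.7 FPKM in YZU147 and 42.4 and 49.2 in T210, but 0.0587 and 0.0348 in YZU191 and 0.328 and 0.472 in T209. It was therefore high in 1 line of each pair. Its log2 difference was -4.51 for YZU191 minus YZU147 (SE 0.22, adjusted p = 1.87e-12 in limma). For T209 minus T210 it was -5.06 (SE 0.22, adjusted p = 4.18e-14 in limma). Both SEs pool the spread of later times, when the mean was at most 0.504 FPKM, and can be too small at 10 DAP. GRMZM2G044882 showed the same sides, with 9.15 and 42.4 FPKM in YZU147, 0.0794 and 0.067 in YZU191, 4.24 and 6.61 in T209 and 49.9 and 57.2 in T210.

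In contrast, GRMZM2G334658 and GRMZM2G322819 were high in YZU147 and in T209. GRMZM2G334658 had 106 and 116 FPKM in YZU147, 1.12 and 1.28 in YZU191, 26.3 and 22.7 in T209, and 0.331 and 0.81 in T210. Its log2 differences were -5.67 (SE 0.56, adjusted p = 1.75e-07 in limma) for the YZU pair and 4.03 (SE 0.56, adjusted p = 1.58e-05) for the parents. GRMZM2G322819 had 57.5 and 53 FPKM in YZU147, 6.86 and 1.32 in YZU191, 19.4 and 27.2 in T209, and 0.433 and 0.724 in T210.

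BURP6 was the reverse in the YZU pair. It had 2.54 and 2.40 FPKM in YZU147, and 346 and 277 in YZU191, 272 and 336 in T209 and 460 and 112 in T210. All 6 ears of the other lines were above those of YZU147, with a log2 difference of 6.49 for YZU191 minus YZU147 (SE 0.93, adjusted p = 3.65e-05 in limma). GRMZM2G301699 was low in the same line, with 0.463 and 2.57 FPKM in YZU147 and 19.0 to 69.4 in the other 6 ears. BURP7, in contrast, had 245 to 593 FPKM in the 8 ears and passed no line test.

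Other orders of the lines also occurred. GRMZM2G158394, which carries the symbol kin1, had 13.2 and 9.54 FPKM in YZU147, 39.9 and 62.9 in YZU191, at least 78.8 in both ears of T209 and 0.54 and 1.98 in T210, with log2 differences of 2.06 for YZU191 minus YZU147 (SE 0.36, adjusted p = 0.000401 in limma) and 5.39 for the parents (SE 0.36, adjusted p = 2.24e-10). The call in the YZU pair was lost with a pseudocount of 0.1 (adjusted p = 0.121). GRMZM5G896560 had 194 and 80.8 FPKM in YZU191 and 56 and 77.6 in T209, against 7.09 to 12 in the 4 ears of YZU147 and T210. GRMZM2G176347 was lowest in T210, at 2.58 and 1.03 FPKM, against 19.0 and 26.1 in T209. GRMZM2G068513 was highest there, with 247 and 149 FPKM in T210 and 0.591 to 11.2 in the other 6 ears.

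**Figure D4:**
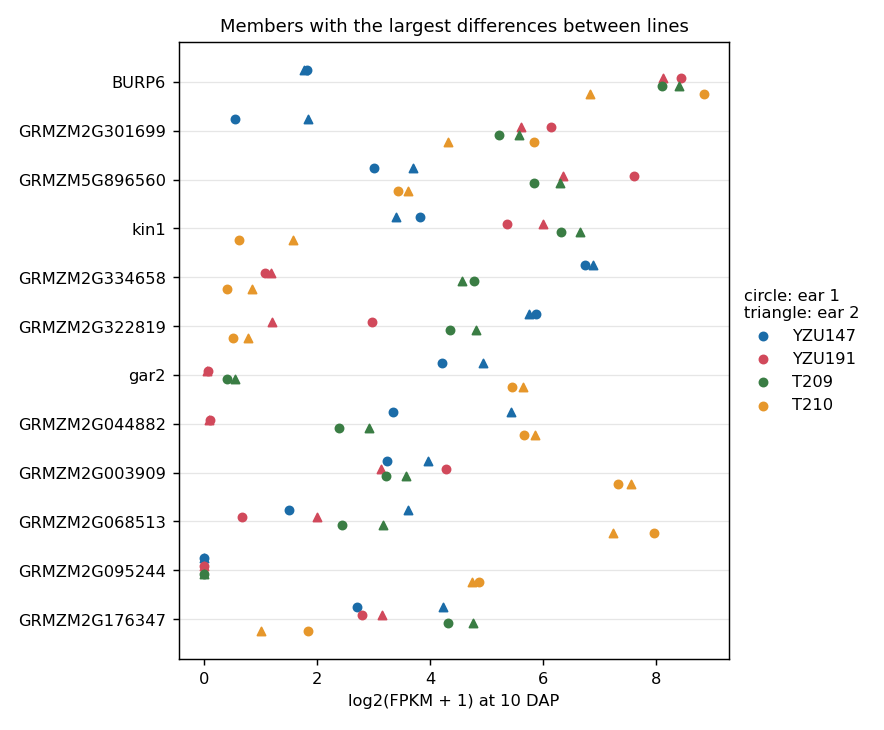
log2(FPKM + 1) at 10 DAP of 12 of the 150 genes, chosen as those with the largest called differences in either pair of lines, with 1 symbol for each ear and a colour for each line. GRMZM2G095244 is listed at 0 in the 6 ears of 3 lines and has 28.2 and 25.6 FPKM in T210.

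The 6 genes whose highest mean lay at another DAP in at least 1 line were all among these line-specific genes. BURP6 had its highest mean in YZU147 at 20 DAP, 11 against 2.47 FPKM at 10 DAP, and GRMZM2G334658 did so in T210, with 5.35 against 0.57 FPKM, and in YZU191, with 2.73 against 1.2 FPKM. GRMZM2G068513 peaked in YZU191 at 20 DAP through a single library, ear 2, which had 40.9 FPKM. The remaining cases, in GRMZM2G044882, GRMZM2G322819 and GRMZM2G095244, had no mean above 1.37 FPKM at their peak.

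In YZU147, YZU191 and T210 the levels at 10 DAP moved against those of the zeins between ears of the same line. In YZU147, 134 of the 150 genes were higher in ear 2 (median log2 difference of ear 1 minus ear 2, -0.68), while all 11 zein profiles were higher in ear 1 (3.14). In YZU191, 117 of the 150 were higher in ear 1 (0.41) and all 11 zeins in ear 2 (-1.0). T210 showed the same with 108 of the 150 higher in ear 1 (0.82) and all zeins in ear 2 (-1.15). In T209 the ears were closer, with 85 of the 150 higher in ear 2 (-0.13) and 10 of 11 zeins in ear 1 (0.42). The summed FPKM of the 150 genes was there higher in ear 1, as for the zeins, at 19767 against 18755. Over genes of at least 5 FPKM the same medians were -0.15, 0.14, 0.26 and -0.12 in YZU147, YZU191, T210 and T209. They had the sign of the 150 genes and a smaller size, except in T209, where the sizes were close. Of these 10996 genes, 7375 were higher in ear 2 of YZU147 and 7763 in ear 2 of T209. Ear 1 was higher for 7233 in YZU191 and for 7761 in T210. Of the 12 transfer-layer profiles, 11 were higher in ear 2 of YZU147, 12 in ear 1 of YZU191, 7 in ear 2 of T209 and 12 in ear 1 of T210, where they summed to 7366 FPKM against 2971 in ear 2.

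Zein sums are given beside the line results. Summed zein FPKM was 63912 and 52032 in T209 and 16618 and 27962 in T210, without overlap, and the 150 genes summed to 19767 and 18755 in T209 and to 42764 and 29315 in T210. In the YZU pair the ears overlapped for both sets, with 44382 and 20588 for the zeins and 25729 and 31891 for the 150 genes in YZU147, and 31288 and 46490 for the zeins and 30524 and 20926 for the 150 genes in YZU191. Of 23 zein rows, 0 were called higher and 1 lower in T209, against the direction of the sums, although the median log2 difference of the list was 1.54, and none was called in the YZU pair (median 1.19). Embryo markers (oleosins, globulins and others, 10 rows) summed to 690 and 550 FPKM in YZU147 and to 1492 and 1679 in YZU191, without overlap. Their median log2 difference was 1.41, with 1 row called higher in YZU191 and 5 of 10 at an unadjusted p under 0.05. The share of all genes under that unadjusted threshold is not given here. The row HB, which carries the synonym GLB1, may not be an embryo marker. Its difference of -0.93 (SE 0.56) was the only negative value among the 10 rows. Between the parents these markers had 1590 and 1667 FPKM in T209 and 1175 and 1568 in T210, with 0 called and 0 at an unadjusted p under 0.05. The 3 starch synthesis genes summed to 3409 and 2592 FPKM in T209 and 1256 and 2164 in T210, without overlap, and to 3578 and 1828 in YZU147 and 3251 and 3261 in YZU191, with 0 called in either pair. The part of the zein, embryo and starch levels in the line differences of the 150 genes was not tested.

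**Figure D5:**
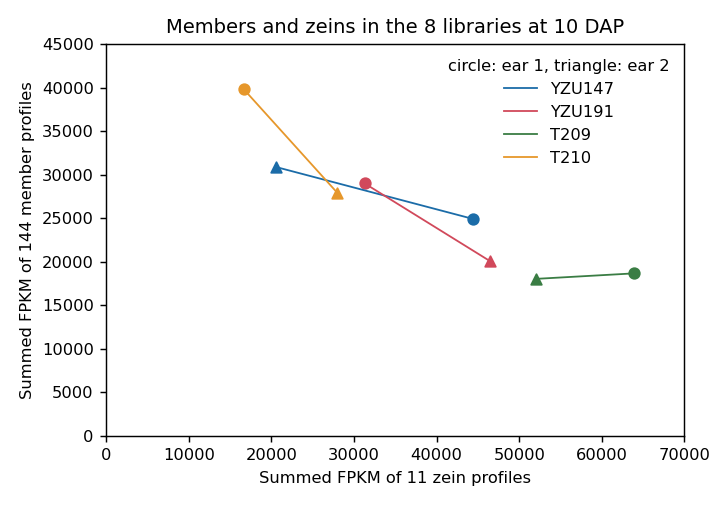
Summed FPKM of the 144 distinct profiles among the 150 genes against the summed FPKM of 11 zein profiles in the 8 libraries at 10 DAP, with circles for ear 1, triangles for ear 2 and a line joining the ears of each inbred line. The sum falls from the ear with fewer zein transcripts to the ear with more in YZU147, YZU191 and T210, and is nearly level in T209, at 18023 and 18655.

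Whether the fall from 10 to 20 DAP differed between lines was tested as an interaction. It did for 11 of the 150 genes (7.33%) in the YZU pair, beside 1.25% of all genes tested and 0.391% of those of at least 5 FPKM. Between the parents it did for 25 of the 150 (16.7%), beside 1.07% of all genes tested and 0.7% of those of at least 5 FPKM. All 11 and all 25 were also called at 10 DAP in the same pair, with the opposite sign. These tests share the 10 DAP libraries, and since most of these genes were near 0 at 20 DAP, the 2 results are not separate. The count of 11 became 39 without ear 1 of YZU191 at 20 DAP, and 7 without ear 2 of that group or without ear 1 of YZU147 at 20 DAP.

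Some of the 150 genes lie beside each other in the genome. Of 95 protein-coding genes matched in the RefSeq annotation of Zm-B73-REFERENCE-NAM-5.0, 11 had another of the 150 within 3 gene places, in 4 runs. The same share for other sets of genes is not given here, so the count does not show that the 150 lie closer together than others. The longest held 5 genes, bap-1a, bap1-b, bap-3a, bap-3b and GRMZM2G123411, and the others held 2 each, including BETL1 with GRMZM2G066546, whose values are the same, and betl2 (GRMZM2G152655) with GRMZM2G027472. Within the first run the order of the lines was not shared, since the T210 ears were highest for bap1-b and bap-1a and ear 2 of T210 was lowest for bap-3a and bap-3b.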

How the data were processed

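The authors deposited 1 table of FPKM values, in which read counts were divided by gene length and by library size. The submitters' processing notes name Bowtie 0.12.2, Cuffdiff and the B73 RefGen_v3 build, and their settings are not given in the sources used here. The table holds 25650 loci assembled from reads beside named genes, and overlapping or near-identical genes may share reads. FPKM keeps no read numbers, so no counting interval was given, and 777 of 780 library pairs fitted the relative depths within 0.02 on the natural log scale. All 40 columns were matched to labels.

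Values were analysed as log2(FPKM + 1), which understates differences of low genes, in limma 3.58.1 (R 4.3.3) with a mean for each of 20 groups fitted to all libraries and a trend on the mean. Genes of at least 1 FPKM in at least 2 libraries (43394, including all 150) were tested two-sided and called at an adjusted p under 0.05. Data of 43394 genes were simulated for YZU191 minus YZU147. In them 80% of log2 differences of 2 and 97% of those of 3 were recovered, with 13 false calls. No separate rates were taken for genes whose spread between ears was larger at the earliest time than later. The rates therefore do not show how often calls among the 150 genes are false or missed. The ears are labelled as repeats, and p-values measure the spread between ears only. Named genes were the 12 with the highest ratio, the 8 with the highest level, the 4 with the largest called difference each way in each pair, up to 3 of each gene list and the 2 on each side of the limit. Other genes were named by symbol after their values were seen. The members and lists were chosen with earlier results of these data known. The keyword lists were meant for gene descriptions, which the table of names does not hold, and were applied to symbols, so 2 of them held members. Alternatives were another pseudocount, no low-value filter, median-ratio rescaling, the ear number as a block, only the groups compared, no variance trend, leaving out each library and, added after seeing the data, only the genes that met the rule without their highest line.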

Additional observations from a re-analysis of the deposited data

Results flagged for a closer look

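The fall from 10 to 20 DAP differed between YZU191 and YZU147 for 11 of the 150 genes and between T209 and T210 for 25, by an interaction term in limma. Values below are the change of log2(FPKM + 1) from 10 to 20 DAP in the first line minus that in the second. A positive value means a smaller fall in the first line. They include the 10 DAP values through which the genes entered the 150, in some cases through the high line alone. The adjusted p-values are therefore not independent of the choice of genes.

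For YZU191 minus YZU147 the value was 6.51 for GRMZM2G334658 (SE 0.79, adjusted p = 2.83e-05 in limma), with 111 FPKM at 10 DAP and 0.416 at 20 DAP in YZU147 but 1.2 and 2.73 in YZU191, where the ears at 20 DAP had 5.46 FPKM and a listed 0. GRMZM2G044882 had 4.36, GRMZM2G322819 had 3.49, GRMZM2G429000 (gar2) had 3.32 and GRMZM2G150134 had 2.75. On the other side, GRMZM2G406170 (BURP6) had -6.52 (SE 1.32, adjusted p = 0.00753 in limma), since its mean went from 312 to 13.2 FPKM in YZU191 and from 2.47 to 11 in YZU147. Its ears at 20 DAP had 25.7 and 0.663 FPKM in YZU191 and 20.9 and 1.14 in YZU147. GRMZM2G301699 had -4.02 and GRMZM5G896560 had -3.17.

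For T209 minus T210 the value was 4.80 for GRMZM2G095244, which is listed at 0 in T209 at both times, so this is no fold change. GRMZM2G429000 had 4.41, GRMZM2G003909 had 3.89, GRMZM2G175912 had 3.59, GRMZM2G044882 had 3.09 and GRMZM2G114356 had 1.5 (SE 0.37, adjusted p = 0.043 in limma), the closest of the named genes to the threshold. Negative values were found for GRMZM2G334658 (-5.51), GRMZM2G158394 (kin1, -4.71), GRMZM2G322819 (-3.92) and GRMZM2G176347 (-3.92).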

How the results depend on the processing

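No called difference or count changed its direction, but the median difference of the YZU pair over the 150 genes turned from -0.11 to 0.17 without ear 2 of YZU147 at 10 DAP and to 0.19 without ear 2 of YZU191. With a pseudocount of 0.1, calls among the 150 genes were 35 over the 4 lines. They were 14 for the YZU pair (3 higher, 11 lower) and 27 for the parents (17 lower). The matching counts over all genes are not given here, so the loss of calls cannot be set against that of other genes. For the 2 interactions, calls at that setting were 2 and 10 (153 and 128 over all genes). Fits on only the 10 and 20 DAP libraries gave 4 and 10 for the interactions (37 and 67 over all genes), and no filter gave 824 over all genes for the parental interaction. The cause was not tested. Among only the 119 genes that met the rule without their highest line, a check chosen after seeing the data, calls were 35, 18 and 29 for the lines, the YZU pair and the parents. Leaving out each library in turn gave 53 to 65 calls over the 4 lines (4694 to 6390 over all genes), 21 to 30 for the YZU pair (4 to 10 higher, 11 to 26 lower, 1489 to 2842 over all genes), 37 to 55 for the parents (11 to 14 higher, 23 to 41 lower, 1949 to 4859 over all genes), 7 to 39 for the YZU interaction (321 to 1969) and 22 to 27 for the parental interaction (275 to 849). The lowest count over all genes for the parents was without ear 2 of T209 at 10 DAP, and the highest YZU interaction counts were without ear 1 of YZU191 at 20 DAP. The rule kept 140 to 150 of the genes without single libraries, 135 to 142 without single lines, and 131 to 149 under other settings. Of 31 calls of named genes, 20 held under every alternative. The fit on only the 10 DAP libraries lost the calls of GRMZM2G114356 and GRMZM2G175912 in the YZU pair. It also lost those of GRMZM2G150134 and GRMZM6G370842 between the parents.

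The ear numbers do not pair the samples: the correlation of ear differences between groups ranged from -0.37 to 0.47 over 190 pairs of groups (median 0.0136), and 35 pairs were over 0.1. With the ear number as a replicate block, calls were 58, 28 and 51 for the lines, the YZU pair and the parents, and 11 and 24 for the interactions.

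With 2 ears a group and unknown read numbers, differences near 0 FPKM are the least certain, and values listed at 0 do not show absence.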

Other observations

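Rows without GRMZM names could not enter the 150 genes, but 35 of them reached the same ratio, of which 22 were assembled loci. MEG3 (72.1 FPKM at 10 DAP) holds the same 40 values as the MEG6 row GRMZM2G088896 and adds no measurement of its own. ESR2B, a gene of the embryo-surrounding region, went from 55.1 FPKM at 10 DAP to 1.79 at 20 DAP, and ESR3 from 9.72 to 0.0331. Enzymes of primary metabolism were also among them. PPDK2, a pyruvate phosphate dikinase, went from 1934 to 213 FPKM, GAPC3, a cytosolic glyceraldehyde-3-phosphate dehydrogenase, from 1393 to 238, and FRK2, a fructokinase, from 98.0 to 10.5. IAGLU, which joins glucose to the auxin indole-3-acetic acid, went from 168 to 21.4 FPKM.

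Between the parents at 10 DAP, ESR2B was lower in T209 by a log2 difference of -2.23 (SE 0.54, adjusted p = 0.00673 in limma) and ESR3 by -3.50 (SE 0.30, adjusted p = 1.68e-08), while GAPC3 had -0.37 (SE 0.68) and did not pass the test.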
